A study of Mus musculus with 12 samples.

Results

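Old hematopoietic stem cells that carry the receptor IL27RA were compared with old stem cells that lack it. The comparison used 6 of the 12 libraries of the series, chosen by their labels: 3 libraries of IL27RA+ cells and 3 of IL27RA- cells, all from bone marrow of C57BL/6 mice aged 28 months. The other 6 libraries hold the same fractions of mice aged 2 months, and they entered the same model and served as a reference. Each library was made by full-length cDNA amplification (Smart-Seq2) of 50 sorted cells, and the labels name no treatment and no altered gene in any group. The labels do not say whether the libraries of a group, or the positive and negative fraction of one number, came from separate animals. The p-values therefore measure only the spread between these libraries, which may be technical. The sort gates for stem cells were not given in the sources used here. All genes were compared: 20457 after 1 damaged line and 15 repeated lines were left out, of which 14803 passed the filter on low values and were tested. Values are normalized counts, that is reads divided by the size factor of the library, and differences are on the scale of log2(normalized count + 1).

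Hematopoietic stem cells renew themselves and give rise to all blood cells, and most of them rest outside the cell cycle at any time. IL27RA is the ligand-binding chain of the receptor for interleukin 27, which signals together with gp130, the product of Il6st. A cell that leaves rest first makes the proteins that open G1 and license replication origins, then those that copy DNA and its methylation marks, and at last those that condense chromosomes, build the spindle and divide the cell. Genes of the last steps are close to silent in resting cells, so their RNA is a common marker of cycling cells.

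Old libraries held 12756522 to 17822817 reads in genes. Between 14272 and 15684 genes had at least 1 read, and a floor of 3 reads corresponded to 2.77 to 3.77 normalized counts. The 6 libraries carried the RNA of stem cell surface markers. Procr stood between 7427 and 15274 normalized counts, Kit between 5791 and 9751 and Slamf1 between 953 and 1770, while Cd48, which stem cell gates exclude, did not exceed 8.2. Cd34 (1922 to 2761) and Flt3 (21.2 to 197) did not separate the fractions. One library stood apart: old IL27RA- replicate 1 gave 1.83% of its reads to antibody genes, with 312300 normalized counts of the light chain Igkc against 18.8 to 248 in the other old libraries. One label of this library calls it young, but both its title and its stated age (28 months) place it with the old group. The counts of the cell cycle lists below are also given without it, and most other counts are not.

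The RNA of the sorted receptor did not separate the fractions. Il27ra stood at 1075, 1430 and 1632 normalized counts in the IL27RA- libraries and at 1148, 1498 and 1235 in the IL27RA+ libraries, and the groups overlapped. The difference was -0.08 ± 0.32 (log2, SE), with a 95% interval of -0.77 to 0.61.

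Genes of DNA replication and cell division stood higher in old IL27RA+ than in old IL27RA- cells. In IL27RA- libraries many of them had no read or almost none, and 14 of 251 had no read in any IL27RA- library, against 2.01% of all genes tested. In all, 9 lists of cell cycle and repair genes, from G1 regulators to homologous recombination, held 251 genes, all tested. Of these, 3 rose in IL27RA+ cells and none fell (limma, Benjamini-Hochberg adjusted over all genes, threshold 0.05). They were the only genes called among 14803, which is 0.0203%. A further count asked only whether the 3 libraries of one fraction all lay above the 3 of the other. This held, with IL27RA+ higher, for 151 of the 251 genes, against 7.23% of all genes tested, and with IL27RA+ lower for 2, against 5.38%. A positive difference was seen in 236 of the 251, against 51.9% of all genes, with a median of 1.87 against 0.02. Lists and members were chosen with earlier results of these data known, so shares here and by list below are descriptions and no test. Without old IL27RA- replicate 1 the non-overlapping genes numbered 165 of 251 and 12.4% of all genes, and the median of the lists was 1.55. Macrophage genes, described further on, also stood higher in IL27RA+ libraries. In bulk libraries of this kind, more cycling cells and more RNA per cycling cell cannot be told apart.

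The gene with the smallest p was Ncaph, which encodes the kleisin subunit of condensin I, the complex that compacts chromosomes in mitosis. Its normalized counts were 0, 0 and 1.3 in IL27RA- and 504.5, 459.8 and 493.3 in IL27RA+ libraries. All IL27RA+ libraries lay close together, and the IL27RA- libraries held 1 read of it in all, against 1447 reads. The difference was 8.54 ± 0.91 (log2, SE; adjusted p = 0.00216), and it was called without any 1 of the 12 libraries in turn. With voom on the recovered reads, or with the replicate number as a block, neither Ncaph nor any other gene was called. A fitted difference for a gene with so few reads in one group depends on the added count of 1 and is no exact fold. In young cells, Ncaph stood at 191 ± 88.7 (SD, n = 3) in IL27RA- and 343 ± 221 in IL27RA+ libraries, so that the old IL27RA- fraction was the low one of the 4 groups.

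Also called was Uhrf1, a protein that binds hemimethylated DNA behind the replication fork and recruits the maintenance methyltransferase. It stood at 0, 1.0 and 42.7 normalized counts in IL27RA- and at 786.4, 763.4 and 809.7 in IL27RA+ libraries. Old IL27RA- replicate 3 alone held more than a trace, and it still lay far below the IL27RA+ libraries. The difference was 7.46 ± 1.08 (adjusted p = 0.0295). Ncaph remained called and Uhrf1 did not when any old IL27RA+ library was left out, and likewise without old IL27RA- replicate 2 or young IL27RA+ replicate 1 or 2. Both were called without old IL27RA- replicate 3.

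**Figure D1:**
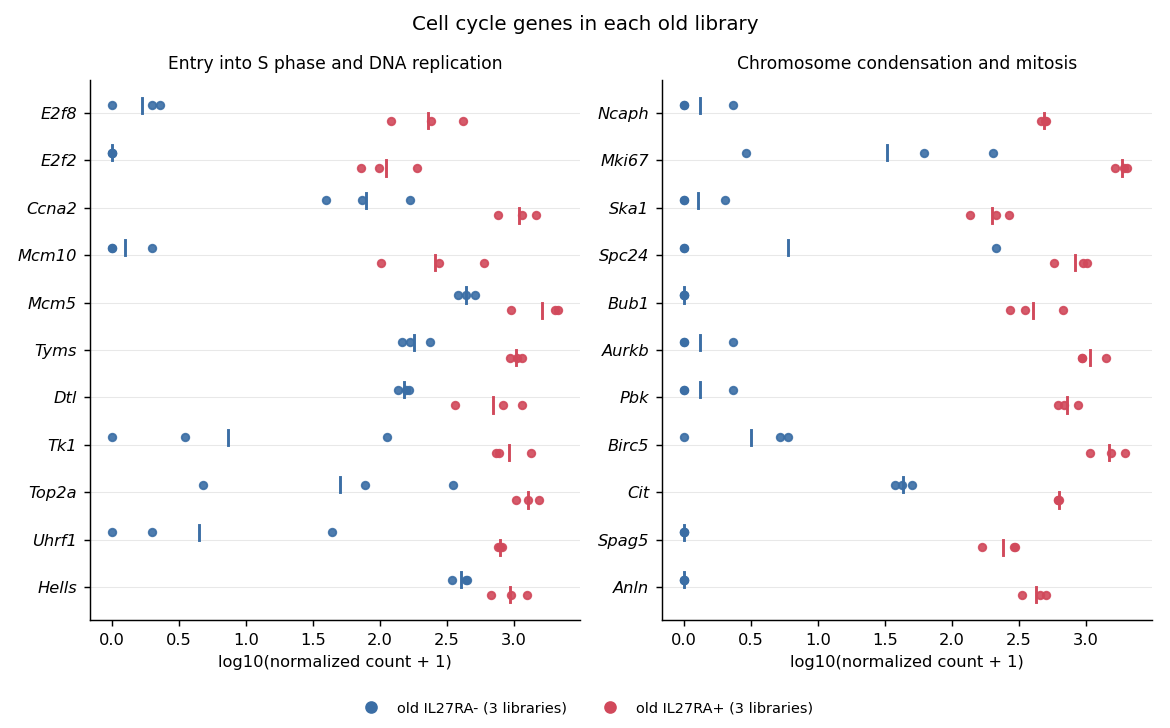
Normalized counts of 22 cell cycle genes in the 3 old IL27RA- libraries (blue) and the 3 old IL27RA+ libraries (red), on a log10(normalized count + 1) axis. Points are libraries, identical values lie on top of each other, and vertical ticks are means of the log values; for every gene drawn the red points lie to the right of the blue ones, and for Bub1, Spag5, Anln and E2f2 all 3 IL27RA- libraries are at 0.

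The promoters of some of the leading genes are shown because the members moved together. The sequences are RefSeq promoters of build GRCm38.p6, the 250 bases before the annotated start, 5′ to 3′ on the strand of the gene. Ncaph lies at chr2:127133955-127134204 on the minus strand, the second of the Uhrf1 starts at chr17:56304063-56304312 on the plus strand, and Bub1, described below, at chr2:127831860-127832109 on the minus strand. By the GENCODE annotation the Ncaph window overlaps no gene, the Uhrf1 window lies in an intron of transcripts from the upstream start, and the Bub1 window reaches the first exon by a few bases. Capitals mark the letters CCAAT or its reverse complement ATTGG, the core of the element read by NF-Y, and TTTCGCGC or TTTGGCGC on either strand, written for E2F.
Ncaph: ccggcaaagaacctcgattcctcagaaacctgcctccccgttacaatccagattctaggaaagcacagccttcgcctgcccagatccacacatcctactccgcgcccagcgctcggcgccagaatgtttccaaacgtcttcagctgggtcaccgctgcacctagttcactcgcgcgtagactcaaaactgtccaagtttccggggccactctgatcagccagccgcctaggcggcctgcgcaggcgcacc
Uhrf1: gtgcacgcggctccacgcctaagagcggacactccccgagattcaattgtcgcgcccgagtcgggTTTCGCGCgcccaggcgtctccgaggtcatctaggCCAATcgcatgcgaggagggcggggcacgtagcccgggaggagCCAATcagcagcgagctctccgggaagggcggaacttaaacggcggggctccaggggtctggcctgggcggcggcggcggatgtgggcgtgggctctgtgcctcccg
Bub1: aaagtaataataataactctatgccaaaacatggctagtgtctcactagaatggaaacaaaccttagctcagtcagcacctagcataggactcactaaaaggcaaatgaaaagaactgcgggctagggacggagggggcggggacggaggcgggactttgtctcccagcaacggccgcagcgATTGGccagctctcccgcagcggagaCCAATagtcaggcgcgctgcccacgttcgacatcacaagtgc

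The Uhrf1 window held 1 E2F match and 2 CCAAT matches, the Bub1 window 2 CCAAT matches, and the Ncaph window none of these letters. The window of the first Uhrf1 start, not shown, held 1 CCAAT match and no E2F match. Of genes described below, the Cit window, also not shown, held none of these letters, and the Spag5 window 1 CCAAT match. Over all 32841 promoters, 33.9% held CCAAT on either strand, 0.7% the E2F letters, and 5250 of 32841 the letters TTTGAA on either strand, the core of the cell cycle homology region. All promoters here include those of genes not tested, whereas the lists hold tested genes only. Of the 251 listed genes 197 matched a promoter by symbol, with 228 promoters, and of these 57.5% held CCAAT, 8.8% the E2F letters and 23.2% TTTGAA. Among the 84 promoters of the kinetochore, mitotic kinase and spindle genes, 72.6% held CCAAT, 6.0% the E2F letters and 32.1% TTTGAA. Among the 60 promoters of the origin and DNA synthesis genes CCAAT was held by 53.3%, the E2F letters by 6 of 60 and TTTGAA by 9 of 60. These are shares of letters in fixed windows and do not show that a factor bound there.

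By step of the cycle, the early regulators had a small median difference. Of 22 regulators of G1 and of entry into S phase, 17 had a positive difference, 5 were non-overlapping and higher, and the median was 0.48. For this and the cell cycle lists below, the share over all genes that were non-overlapping and higher was 7.23%. Cdk6, the kinase that with D cyclins opens G1, stood at 3464, 5985 and 5593 against 13868, 8830 and 13153 normalized counts (difference 1.27 ± 0.33, adjusted p = 0.265). E2f8, a repressor of E2F targets that is itself made in S phase, stood at 0, 1.0 and 1.3 against 239, 121 and 415, and E2f2 at 0 in every IL27RA- library against 97.9, 71.8 and 189.8, at least 36.8-fold higher against a floor of 3 reads per library. Ccna2, cyclin A2, stood at 168, 72.6 and 38.9 against 1473, 759 and 1147. None of these passed the test, and in all 4 genes the fractions did not overlap.

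Genes that license origins and copy DNA differed moderately and in nearly all members. Of 26 licensing and firing genes 25 had a positive difference, 13 were non-overlapping and higher and the median was 1.03. Of 37 DNA synthesis genes all 37 had a positive difference, 23 were non-overlapping and higher and the median was 1.19. None of these 63 genes was called. Mcm10, which helps start the replicative helicase, stood at 0, 1.0 and 0 against 274, 100.6 and 598 normalized counts. Mcm5, a subunit of that helicase, had RNA in both fractions, at 381, 508 and 438 against 2131, 959 and 2032 (1.87 ± 0.47, adjusted p = 0.231). Both genes had separate groups, Mcm10 from near 0 and Mcm5 from a level well above the floor.

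Enzymes of thymidine nucleotide supply had the same direction. Tyms, thymidylate synthase, stood at 144, 167 and 235 against 1156, 1057 and 935 normalized counts (2.54 ± 0.43, adjusted p = 0.0636). Tk1, thymidine kinase, stood at 0, 112 and 2.5 against 1347, 779 and 735 (6.96 ± 1.58, adjusted p = 0.160). The IL27RA- libraries differed more among themselves for Tk1 than for Tyms, and no IL27RA- library reached an IL27RA+ library for either. Dtl, the adaptor by which Cdt1 is degraded in S phase, stood at 156, 135 and 164 against 1141, 826 and 362 (2.20 ± 0.44). Top2a, which untangles replicated DNA, stood at 352, 75.8 and 3.8 against 1531, 1037 and 1275.

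Of 11 genes that maintain or change DNA methylation all had a positive difference, but 2 were non-overlapping, Uhrf1 and Hells, and the median was 0.34. Hells, a chromatin remodeller needed for DNA methylation, stood at 438, 444 and 342 against 1261, 944 and 677 normalized counts (1.20 ± 0.39, adjusted p = 0.531). The other 10 members had differences of at most 1.20, against 7.46 for Uhrf1.

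Repair by homologous recombination and the Fanconi pathway gave 31 positive differences of 36, 17 non-overlapping and higher, and a median of 1.27. Eme1, part of a nuclease that resolves recombination junctions, stood at 1.0, 0 and 0 against 252, 131 and 436 normalized counts. Rad54b, a recombination motor protein, stood at 0, 2.1 and 0 against 179, 107 and 146, and Neil3, a glycosylase that also opens crosslinks, at 0, 72.6 and 0 against 767, 742 and 437. Eme1, Rad54b and Neil3 had separate groups and none passed (adjusted p = 0.214, 0.271 and 0.382).

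Genes of chromosome structure were mixed. Of 20 condensin, cohesin and chromosome surface genes 17 had a positive difference, with 12 non-overlapping and higher and a median of 0.89. The 2 non-overlapping genes that were lower in the whole cell cycle set belong here. Pttg1, securin, stood at 1492, 545 and 854 against 309.6, 539 and 531 normalized counts (-0.99 ± 0.43, adjusted p = 0.879), and Smc1a, a cohesin core subunit, at 7386, 7381 and 7003 against 5478, 4631 and 6534 (-0.40 ± 0.18, adjusted p = 0.880). Pttg1 is not among the genes chosen by rule and was named after its values were seen. Mki67, the coat protein of mitotic chromosomes known as Ki-67, stood at 1.9, 60.2 and 199.7 against 1912, 1645 and 2003 (5.81 ± 1.27, adjusted p = 0.142). Esco2, which acetylates cohesin in S phase, stood at 0 in all 3 IL27RA- libraries against 87.8, 90.0 and 146, at least 33.2-fold higher.

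The kinetochore, mitotic kinase and spindle lists had the highest medians of the 9. Among 33 kinetochore and checkpoint genes 32 had a positive difference, 24 were non-overlapping and higher, and the median was 3.85. Bub1, the checkpoint kinase of unattached kinetochores, had no read in any IL27RA- library and 667, 271 and 352 normalized counts in IL27RA+ libraries, at least 132-fold higher. Ska1, which couples kinetochores to microtubules, stood at 0, 1.0 and 0 against 212, 265 and 136. Spc24, of the Ndc80 complex, stood at 211, 0 and 0 against 1023, 576 and 955. The 1 IL27RA- library with reads of Spc24 was replicate 1, and it remained below all IL27RA+ libraries.

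All 29 mitotic kinases, cyclins and APC/C genes had a positive difference, 23 were non-overlapping and higher, and the median was 3.67. Aurkb, the kinase of the chromosomal passenger complex, stood at 0, 0 and 1.3 against 1396, 923 and 929 normalized counts (9.66 ± 2.04, adjusted p = 0.142). Birc5, survivin of the same complex, stood at 0, 4.2 and 5.0 against 1944, 1542 and 1072 (8.88 ± 1.92, adjusted p = 0.142). Pbk, a mitotic kinase, stood at 0, 0 and 1.3 against 863, 620 and 681 (9.09 ± 1.78, adjusted p = 0.0972). These differences were among the largest by size and still did not pass, with standard errors of 1.78 to 2.04 on the log2 scale. Each standard error pools the spread of all 12 libraries, the young ones included. In young IL27RA+ libraries, for example, Aurkb stood at 366 ± 469 (SD, n = 3). Aurkb, Birc5 and Pbk were called when only the 6 old libraries were fitted. Nek2, a centrosome kinase, stood at 0, 1.0 and 1.3 against 394, 484 and 653.

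Spindle motors and cytokinesis genes had the highest median of the 9 lists, 4.93, or 4.80 with genes at 0 taken at their floor. All 37 members had a positive difference and 32 were non-overlapping and higher. Cit, citron kinase of the midbody, stood at 49.1, 36.3 and 41.4 against 619.1, 628.4 and 616.4 normalized counts, with the libraries of each fraction close together. Its difference was 3.86 ± 0.60, and its adjusted p of 0.05001 lay just above the threshold. Cit passed in 12 of the 23 other settings tried, among them the stricter filter and the removal of antibody genes. Spag5, a spindle protein, had no read against 165, 293 and 287, at least 76.3-fold higher, and Anln, the contractile ring scaffold anillin, had no read against 498, 331 and 451, at least 131-fold higher.

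**Figure D2:**
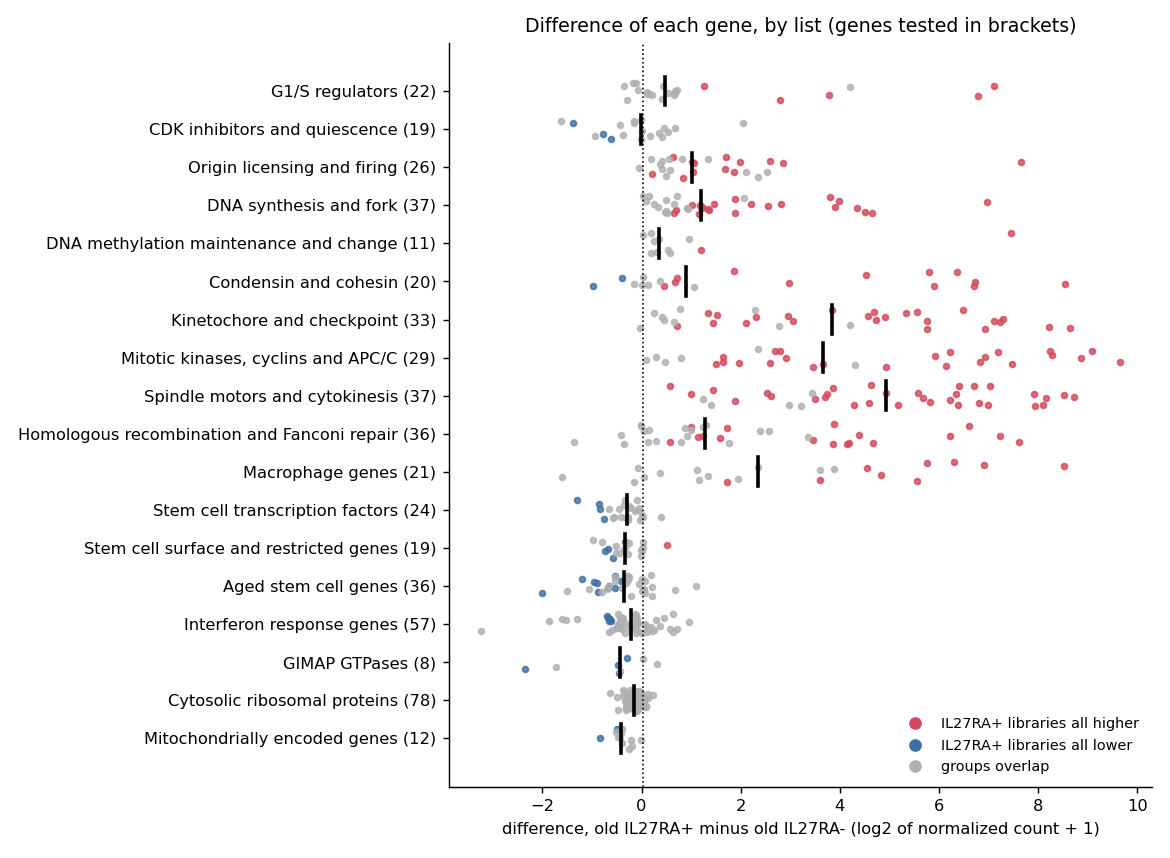
Difference of each tested gene (log2 of normalized count + 1, old IL27RA+ minus old IL27RA-) by list, with the number of tested genes in brackets. Points are genes, coloured by whether the 3 libraries of one fraction all lie on one side of the other, black bars are list medians, and the dotted line is the median of all genes at 0.02; kinetochore, mitotic kinase and spindle genes lie farthest to the right, with medians of 3.85, 3.67 and 4.93.

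The pattern was close to on or off for a group of genes. Across all 14803 genes, 26 had at most 3 reads in each IL27RA- library and at least 100 normalized counts in every IL27RA+ library, and 0 had the reverse. Of the 26, 19 were members of the cell cycle lists, and 8 of the 26 had no read at all in IL27RA- cells. Of the 251 cell cycle genes 59, 29 and 41 had no read in the 3 IL27RA- libraries, against 0, 1 and 0 in the IL27RA+ libraries. Detection at a level of 10 normalized counts was lower in IL27RA- libraries. It reached 12723, 13390 and 13162 genes there, against 13675, 13607 and 13492 in IL27RA+ libraries. Detection of at least 1 read overlapped. Of 14552 tested genes outside the cell cycle lists, 283 lacked a read in all 3 IL27RA- libraries and 129 in all 3 IL27RA+ libraries. The part of this lower detection in the pattern was not tested. Summed over the 251 genes, IL27RA- libraries held 135009, 152740 and 131143 normalized counts and IL27RA+ libraries 263694, 220749 and 236010. The sums did not overlap. The young fractions lay between or across them, at 173823 to 186434 in IL27RA- and 147801 to 243387 in IL27RA+ libraries, and 5, 56 and 51 of the genes had no read in the young IL27RA- libraries.

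Genes that hold cells out of the cycle did not mirror this. Of 19 CDK inhibitors and quiescence genes 8 had a positive and 11 a negative difference, with a median of -0.02. The non-overlapping ones were lower in IL27RA+ cells, 3 of 19 against 5.38% of all genes. Gadd45g, a stress-induced growth inhibitor, stood at 2723, 3219 and 2573 against 812, 1266 and 1244 normalized counts (-1.38 ± 0.41, adjusted p = 0.412). Txnip, the member with the highest normalized counts, stood at 53563, 63418 and 70259 against 35862, 54495 and 49883, and its groups overlapped.

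The same comparison in young cells gave a median difference of 0.46 over the 251 genes, with 173 of them positive. It differed by list: the young medians were 2.1 for the mitotic kinase list, with all 29 genes positive, 2.19 for the spindle list, with 31 of 37, and 1.03 for the kinetochore list, with 28 of 33, against -0.18 for origin licensing. The difference between the old and the young sort difference was tested in the same model. It was positive in 207 of the 251 genes, with a median of 1.25 against 0.01 over all genes, and 0 of 14803 genes were called (limma, 0% called, 769 or 5.19% at an unadjusted p under 0.05). For Ncaph it was 7.86 ± 1.29 (adjusted p = 0.169) and for Uhrf1 6.94 ± 1.52 (0.614). A larger separation in old than in young cells was therefore not shown for any single gene.

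**Figure D3:**
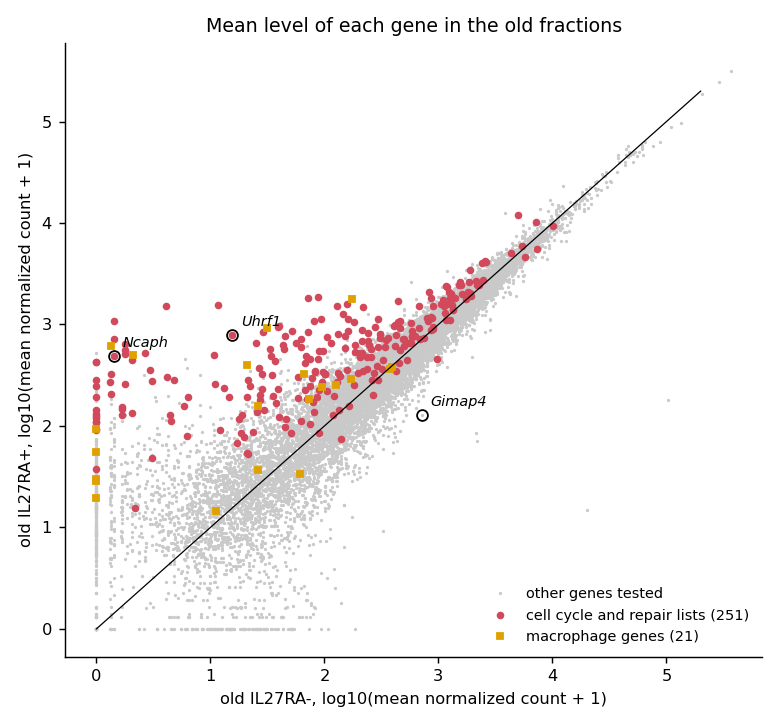
Mean normalized count of each tested gene in old IL27RA- (horizontal) and old IL27RA+ libraries (vertical), both as log10(mean + 1), with 3 libraries a group and the line of equality. Most cell cycle and repair genes (red, 251) lie above the line and some reach the left edge, where IL27RA- libraries hold almost no read; Ncaph, Uhrf1 and Gimap4 are circled.

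Macrophage genes also stood higher in IL27RA+ cells, with 0 called. Of 22 listed genes 21 were tested, 18 had a positive difference, 9 were non-overlapping and higher, against 7.23% of all genes, and the median was 2.34. In young cells the median was 3.92 and 20 of the 21 were positive. C1qb, a chain of complement C1q, stood at 0, 1.0 and 0 against 791.0, 145.6 and 890.6 normalized counts (8.53 ± 1.43, adjusted p = 0.0636). C1qa stood at 87.6, 0 and 3.8 against 1064, 124 and 1589, and Vcam1, an adhesion molecule of marrow macrophages and stroma, at 1.0, 1.0 and 1.3 against 613, 28.7 and 865. Old IL27RA+ replicate 2 was the low one of its group for C1qa, C1qb, C1qc and Vcam1. Hmox1, the heme oxygenase of macrophages that take up red cells, stood at 78.0, 383 and 62.8 against 1244, 877 and 3203 (3.61 ± 0.66, adjusted p = 0.0972). Other defining markers did not separate: Csf1r, the receptor of the growth factor M-CSF, stood at 668, 214 and 242 against 437, 199 and 446, and Mertk at 56.8, 63.3 and 61.5 against 60.1, 2.9 and 34.0. Emr1, which encodes F4/80, was at 0 in the IL27RA- libraries and in old IL27RA+ replicate 2, and at 29.6 and 57.4 in the others.

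Old IL27RA+ replicate 2 had the lowest sum of its group both for macrophage genes and for cell cycle genes, while replicate 3 had the highest macrophage sum and replicate 1 the highest cell cycle sum. Macrophage genes summed to 1455 to 1843 normalized counts in IL27RA- libraries and to 6894, 2614 and 10627 in IL27RA+ libraries. Single cell cycle genes differed in old IL27RA+ replicate 2. Ncaph (459.8) and Uhrf1 (763.4) lay close to the other IL27RA+ libraries, while Mcm10 (100.6) and Mcm5 (959) lay well below them. Without old IL27RA+ replicate 2 the cell cycle lists had 172 of 251 non-overlapping genes and the macrophage list 15 of 21, with a macrophage median of 4.00. Over all genes tested such counts also rose, from 1070 to between 1599 and 1860, when any 1 old library was left out. The part of macrophage RNA in the differences described here was not tested.

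**Figure D4:**
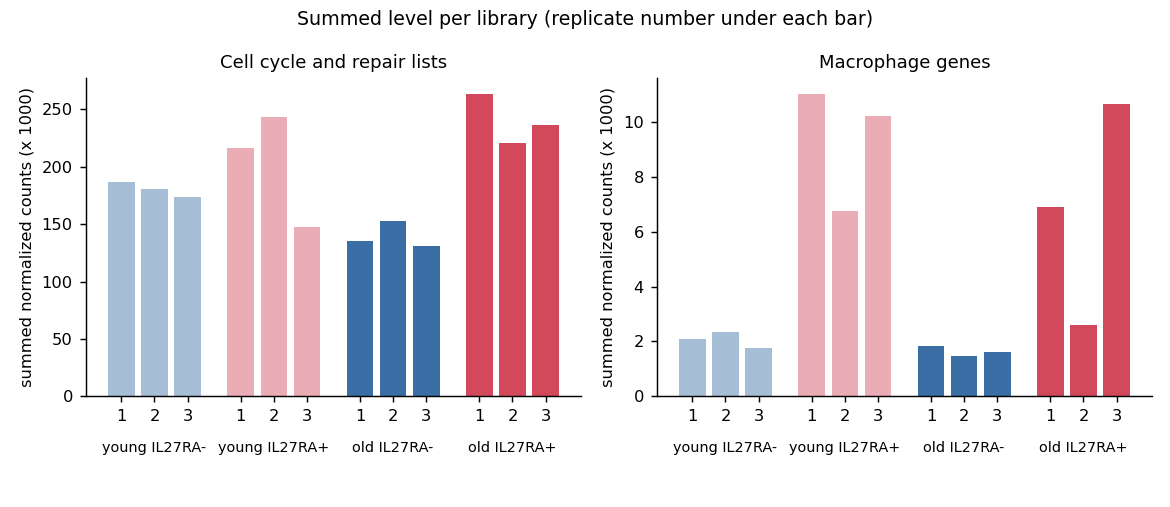
Summed normalized counts, in units of 1000, per library of the cell cycle and repair lists (left) and the macrophage genes (right), with 3 libraries a group, young groups pale and old groups full. In old cells the cell cycle sums are 131143 to 152740 in IL27RA- and 220749 to 263694 in IL27RA+ libraries, and the macrophage sum of old IL27RA+ replicate 2 (2614) lies near the IL27RA- libraries.

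Other genes that stood high in IL27RA+ and near 0 in IL27RA- cells have varied known roles. Lgals3, the lectin galectin-3, stood at 4.8, 0 and 0 against 398, 126 and 428 normalized counts (7.28 ± 1.21, adjusted p = 0.0636). In young cells Lgals3 had no read in IL27RA- libraries and stood at 171 ± 72.4 (SD, n = 3) in IL27RA+ libraries. Mfsd2b, a sphingosine-1-phosphate exporter of red cells and platelets, had no read against 289, 225 and 1065, at least 162-fold higher. Pdzk1, a scaffold protein, stood at 0, 0 and 3.8 against 87.8, 65.1 and 134, and Rtkn2 had no read against 87.8, 75.7 and 152. Irf8, a transcription factor of the monocyte and dendritic lineages, stood at 2.9, 4.2 and 0 against 224, 69.0 and 228. The groups of these 5 genes did not overlap and none passed the test. Old IL27RA+ replicate 2 was the low one of its group for all 5, as for C1qa, C1qb, C1qc and Vcam1. It was also the low one for some cell cycle genes, among them Mcm10, E2f8, Eme1 and Bub1, and not for others, such as Ska1 and Nek2. The share of all genes with this order was not counted. The part of macrophage RNA in Lgals3, Mfsd2b, Pdzk1, Rtkn2 and Irf8 was not tested.

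Markers of further blood lineages were mixed, some near 0 and some high in both fractions. Of 16 granulocyte and monocyte genes with a value 9 were tested, 7 of them with a positive difference and a median of 0.78, and 3 of the 9 were non-overlapping and higher, against 7.23% of all genes. Of the defining granule proteins, Mpo and Ctsg had no read in the 6 old libraries, while Prtn3, a granule protease, stood at 13152, 9036 and 9885 against 9711, 10528 and 7609 normalized counts. Lyz2, lysozyme, was high in both fractions, with means of 12262 and 14102. S100a9, a calcium-binding protein of neutrophils, stood at 1.9 to 6.3 in IL27RA- and 41.0 to 52.7 in IL27RA+ libraries. Gata1, the erythroid and megakaryocyte factor, stood at 0, 0 and 75.3 against 357, 1.0 and 343, which overlapped. Pf4, a platelet chemokine, stood at 48.1, 135 and 23.9 against 217, 198 and 1413, with replicate 3 far above the other IL27RA+ libraries. Gp1ba and Gp9, platelet surface proteins, had reads in all 6 libraries and overlapped. Of 22 megakaryocyte and platelet genes 12 had a positive difference, 2 were non-overlapping and higher (9.09%) and 1 lower (4.55%), near the shares of 7.23% and 5.38% over all genes. Of 15 erythroid genes 10 were positive and 3 non-overlapping and higher (20.0%), with a median of 0.58. Among these Car2, a carbonic anhydrase, stood at 31016, 39451 and 42179 against 50835, 45025 and 44567 (0.33 ± 0.19, adjusted p = 1). Cd79b, a subunit of the B cell receptor, had means of 1137 and 1001 and overlapped. The part of such cells in the differences between the fractions was not tested.

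In the other direction 0 genes were called (limma, 14803 genes; 797 non-overlapping and lower, 5.38%). The gene with the smallest p was Gimap4, a GTPase of immune-associated proteins known from lymphocyte survival. It stood at 1180, 433 and 519 normalized counts in IL27RA- and at 159.9, 118 and 102 in IL27RA+ libraries, without overlap, and IL27RA- replicate 1 was the highest. The difference was -2.36 ± 0.44 (adjusted p = 0.0972). Of 8 GIMAP genes tested 6 had a negative difference, 4 were non-overlapping and lower, and the median was -0.44. Gimap6 stood at 3084, 3606 and 3707 against 2679, 2263 and 2631 (-0.46 ± 0.21, adjusted p = 0.921).

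Genes of signalling at the membrane and cell cortex followed. Pik3r1, the regulatory subunit p85 alpha of PI3 kinase, stood at 6091, 5772 and 4693 against 2097, 2850 and 3164 normalized counts (-1.04 ± 0.23, adjusted p = 0.142). Net1 and Spata13, guanine nucleotide exchange factors, stood at 2020, 2787 and 3663 against 699.5, 1139 and 1522, and at 910.0, 998 and 937 against 267, 521 and 262. Cdh22, a cadherin, stood at 117, 43.6 and 67.8 against 0, 0 and 2.3, and Nrp2, the receptor neuropilin 2, at 99.2, 134 and 42.7 against 0 in all 3. In each of these genes the IL27RA- libraries lay above the IL27RA+ libraries. The list to which Pik3r1 belongs did not stand apart: of 22 insulin-like growth factor and PI3K genes 12 were negative, with a median of -0.06.

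Other genes among the 15 with the smallest p and a negative difference also had groups without overlap, and none was called. Gstm1, a glutathione transferase, stood at 13499, 10993 and 11269 against 6728, 6619 and 6588 normalized counts (-0.84 ± 0.21, adjusted p = 0.218). Apoe, apolipoprotein E, stood at 13554, 13488 and 12693 against 8586, 8218 and 7496 (-0.71 ± 0.18, adjusted p = 0.232). For both, the range within each fraction was smaller than the gap between the fractions. Tenc1, a tensin-like phosphatase, stood at 3799, 1788 and 2056 against 979, 926 and 648, and Mipol1 at 861, 654 and 713 against 180.2, 257 and 245.

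Stem cell genes had slightly lower values in IL27RA+ cells, with 0 of 24 transcription factors, 0 of 19 surface and restricted genes and 0 of 36 aged stem cell genes called. Of the transcription factors 21 had a negative difference, with a median of -0.30. Of the 24, 4 were non-overlapping and lower, 16.7% against 5.38% of all genes. Hoxb5, a marker of long-term stem cells, stood at 1373, 1059 and 1695 against 449, 593 and 627 normalized counts (-1.29 ± 0.40, adjusted p = 0.476). Erg, an ETS factor that sustains stem cells, stood at 4901, 4006 and 4714 against 2046, 2512 and 3730 (-0.76 ± 0.24, adjusted p = 0.531). Prdm16, which supports stem cell maintenance, stood at 2385, 1302 and 1556 against 904, 917 and 1030. These 3 genes did not overlap between the fractions. Hlf, another stem cell factor, did overlap, at 11028, 8253 and 10122 against 7286, 9034 and 5427.

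Of the 19 surface and restricted genes 15 were negative. Non-overlapping were 4 that were lower (21.1%, against 5.38% of all genes) and 1 that was higher, Slamf1 (5.26%, against 7.23%). Procr, the protein C receptor EPCR used to gate stem cells, stood at 15274, 14537 and 11868 against 7427, 9323 and 8318 normalized counts (-0.73 ± 0.19, adjusted p = 0.283). Slamf1, CD150, stood at 1028, 953 and 1133 against 1406, 1770 and 1297 (0.51 ± 0.36, adjusted p = 1). Kit stood at 5791, 8293 and 9751 against 7196, 6927 and 9454, which overlapped. The gate genes thus differed in sign among themselves. Procr and Slamf1 are both positive markers of stem cells.

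Of the genes known to mark aged stem cells 25 were negative and 10 of 36 were non-overlapping and lower, against 5.38% of all genes, with a median of -0.35. Exoc6b, an exocyst subunit, stood at 3641, 2547 and 3303 against 1581, 1826 and 1458 normalized counts (-0.95 ± 0.30, adjusted p = 0.482). Jam2, a junction adhesion molecule, stood at 1557, 2202 and 2650 against 1301, 1040 and 1041, and Gda, guanine deaminase, at 6832, 4798 and 5280 against 2562, 3625 and 2968. Vwf, von Willebrand factor, overlapped between the fractions, at 3622, 2692 and 3575 against 1919, 2122 and 2832.

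**Figure D5:**
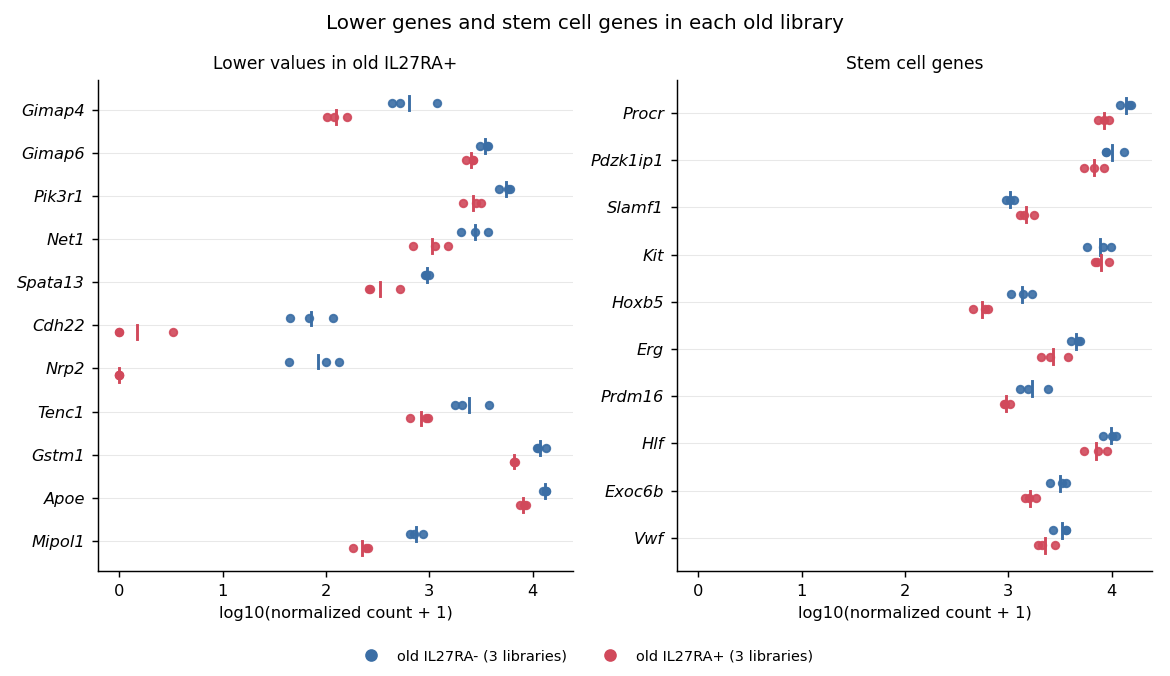
Normalized counts of 11 genes with lower values in old IL27RA+ cells (left) and of 10 stem cell genes (right) in the 3 old IL27RA- (blue) and 3 old IL27RA+ libraries (red), as log10(normalized count + 1), with ticks at the means of the log values. Cdh22 and Nrp2 reach 0 in IL27RA+ libraries, and of the stem cell genes drawn Slamf1 alone is higher in every IL27RA+ library than in every IL27RA- library.

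Signalling lists near the sorted receptor showed no called gene. Of 10 tested IL27 and gp130 cytokine genes 4 had a positive and 6 a negative difference. Il6st, gp130, stood at 39.5, 881 and 633 against 566, 659 and 655 normalized counts, and the low library was old IL27RA- replicate 1. Osmr, the oncostatin M receptor, stood at 493, 474 and 919 against 172, 126 and 152 (-2.00 ± 1.12, adjusted p = 1). Ebi3, a subunit of interleukin 27, stood at 516, 391 and 313 against 343, 178 and 171, with overlap. Of 21 JAK, STAT and SOCS genes none was non-overlapping in either direction and the median was -0.13.

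Of 57 interferon response genes 41 had a negative and 16 a positive difference, against 51.9% positive over all genes. Of them 7 were non-overlapping and lower, 12.3% against 5.38% of all genes, with a median of -0.21. Ifitm3, an antiviral membrane protein, stood at 11412, 7568 and 6483 against 5898, 5321 and 4489 normalized counts (-0.66 ± 0.24, adjusted p = 0.677), and Ly6e at 14297, 12862 and 15782 against 9501, 10171 and 11130. H2-K1, a class I molecule, stood at 80924, 72136 and 76086 against 53467, 59833 and 57192. The 3 genes did not overlap, and none passed. In the TNF and NF-kB list of 25 genes the signs were even, 13 positive and 12 negative. Chuk, the kinase IKK alpha, stood at 431, 398 and 674 against 1130, 1542 and 1058 (1.33 ± 0.35, adjusted p = 0.283), while Birc3, an NF-kB target and regulator, stood at 1143, 1857 and 1189 against 779.9, 652 and 750.0 (-0.91 ± 0.30, adjusted p = 0.571).

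Genes of energy and protein synthesis differed little. All 12 tested mitochondrially encoded genes had a negative difference, and 2 were non-overlapping and lower, 16.7% against 5.38% of all genes. The median was -0.41, or -0.25 without old IL27RA- replicate 1. The mitochondrial share of reads overlapped, at 6.80%, 5.76% and 4.06% in IL27RA- and 4.71%, 5.63% and 4.13% in IL27RA+ libraries. The gene mt-Nd6, a complex I subunit, stood at 15483, 6087 and 5447 against 4598, 4639 and 4125 normalized counts (-0.85 ± 0.39, adjusted p = 0.921), and old IL27RA- replicate 1 was far above the other libraries. Of 78 cytosolic ribosomal protein genes 64 had a negative difference, with none non-overlapping and a median of -0.15, which was 0.03 without old IL27RA+ replicate 3. The median over 77 nuclear genes of the respiratory chain was -0.01.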

How the data were processed

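RNA-seq libraries of 50 sorted cells were compared, 3 old IL27RA+ with 3 old IL27RA-. The submitters' processing notes name HTSeq, DESeq2, TopHat2 2.1.1 and FastQC 0.11.5, without saying what each did. The genome build was not given in the sources used here. The authors deposited 1 log2 value per gene and library. From the values, this is log2(reads / size factor + 1), and whole reads were recovered for 100% of values (tolerance 0.001 reads). One deposited column was entered as a score because a damaged line (Mtbp, left out) broke its scale, and its other values are log2 as well. A trended limma 3.58.1 model (R 4.3.3), with 4 group means, was fitted here to all 12 libraries. P-values were Benjamini-Hochberg adjusted over the 14803 genes in which at least 3 of 12 libraries reached 10 on the linear scale. The fit was tested on simulated data, with the changed genes picked among genes with reads in all 12 libraries. Genes near 0 in 1 fraction, such as Ncaph, were therefore not covered. Lists and members were chosen with earlier results of these data known. Named genes were Il27ra, the called genes, the 15 smallest p and the 10 largest differences in each direction among non-overlapping genes (the latter with at least 100 normalized counts in each library of the higher group), the 4 smallest p and the highest mean of each list, defining markers and sort gate genes. Not every such gene is printed, predicted genes are not named, and 1 of the 3 called genes is not reported here. Floors cover counting error alone, since PCR copies are not independent molecules. Alternatives changed the pseudocount, filter, scaling, weighting, tool or block, or left out 1 library.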

Additional observations from a re-analysis of the deposited data

How the results depend on the processing

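The count of 3 called genes depended on the processing. It was 86 with library weights (78 higher, 8 lower), 29 when only the 6 old libraries were fitted, 10 with a pseudocount of 10, 5 without a filter, and 0 with voom on the recovered reads or with the replicate block. The 3 genes were among those called with library weights, a pseudocount of 10 and no filter, but of the 3 only Ncaph was among the 29. Leaving out 1 of the 12 libraries gave 1 to 24 genes: 6 without old IL27RA- replicate 1, 24 and 12 without young IL27RA- replicates 1 and 2. It was 4 with a filter on normalized counts, chosen after seeing the data. The interaction count of 0 was 0 to 5 without 1 library, the 5 arising without young IL27RA- replicate 1. Same-numbered deviations of the old libraries correlated at 0.0308, 0.00393 and 0.0956, and differently numbered ones at -0.0672 to 0.0361. Correlations this small cannot tell whether replicate numbers pair the old libraries. The replicate block left 0 calls. Differences that changed sign were of genes not called. Without 1 library, Il27ra ran from -0.25 to 0.052 (0.0016 without old IL27RA+ replicate 1), Csf1r from -0.25 to 0.57 (-0.13, -0.14 and -0.16 without old IL27RA+ replicates 1 and 3 and old IL27RA- replicate 3), Kit from -0.21 to 0.17 (-0.14 without old IL27RA+ replicate 3), Il6st from -0.26 to 1.97 and Igkc from -4.18 to 2.79. Csf1r was -0.014 with voom, and Kit -0.12 and Igkc 0.65 with library weights. The cause was not tested. The cell cycle median of 1.87 ran from 1.55 to 2.00 over all alternatives, and the macrophage median of 2.34 from 1.58 to 4.00.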
